A study of Arabidopsis thaliana with 15 samples.

Results

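The triple mutant ebs shl lhp1 of Arabidopsis thaliana was compared with the wild type (WT) over all annotated loci. The members were the 3 libraries of ebs shl lhp1 and the 3 of WT, 6 of the 15 libraries of the study. Whole Col-0 seedlings had grown for 3 weeks on 1/2 MS under a short-day cycle, with light for 8 h and darkness for 16 h. The labels give the genotypes by name without alleles, and do not say how many plants a library pooled or whether replicates were separate cultures, so p-values measure only the spread between these libraries. RNA of ebs shl lhp1 was extracted with the miRNeasy Micro kit and RNA of WT with the RNeasy Plus Mini kit, so genotype and kit cannot be told apart between them. A further mutant, emf1, was extracted with the same kit as ebs shl lhp1, and its 3 libraries are set beside the comparison for that reason. The remaining 6 libraries, of lhp1 and ebs shl, were extracted with the kit of WT.

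EBS and SHL are close relatives that pair a bromo-adjacent homology domain with a plant homeodomain finger and read methylated histone H3. LHP1 is a chromodomain protein that binds trimethylated lysine 27 of histone H3, the mark set by Polycomb repressive complex 2. EMF1, found only in plants, is a protein linked to the Polycomb complexes. In Arabidopsis seedlings, Polycomb marks keep flower, seed and many other developmental genes silent until their stage.

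Library totals were 11730989, 11751220 and 16236389 counts in ebs shl lhp1 and 15349392, 15826822 and 14950561 counts in WT. Levels are given as CPM, the share of a library's counts normalised between libraries with TMM factors, a scale that does not correct for gene length. On a log scale the mean WT profile correlated with the ebs shl lhp1 libraries at r of 0.822, 0.795 and 0.837, and with the WT libraries at 0.994, 0.994 and 0.997. Libraries of ebs shl lhp1 also differed more among themselves than WT libraries did. The common biological coefficient of variation, which is the spread between replicates beyond counting, was 21.2% in ebs shl lhp1 and 14.7% in WT. In the 6 libraries the first principal component separated the genotypes and held 86.9% of the variance. Among the genes called, replicate 3 of ebs shl lhp1 was the library nearest to WT for 47.5% and replicate 2 for 16.8%.

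The mutated genes were read first. EBS had 2.33, 1.99 and 2.51 CPM in ebs shl lhp1, against 24.1, 27.4 and 25.9 CPM in WT. The groups were far apart, with a log2 fold change of -3.48 ± 0.18 (SE, adjusted p = 8.7e-09). SHL had 192, 222 and 159.9 CPM in ebs shl lhp1, against 38.1, 43.6 and 41.2 CPM in WT. SHL RNA was therefore higher in ebs shl lhp1, by 2.22 ± 0.12 on the log2 scale (SE, adjusted p = 1.2e-08), and the ebs shl double mutant had 217 ± 11.3 CPM (SD, n = 3). A gene count does not show whether that RNA is intact. LHP1 had 23.4, 20.7 and 19.3 CPM in ebs shl lhp1, against 18.6, 20.1 and 20.8 CPM in WT, and the libraries overlapped. Its log2 fold change was 0.09 ± 0.09 (SE, adjusted p = 0.39), while the lhp1 single mutant had 10.5 ± 0.384 CPM (SD, n = 3). Since it is not stated whether counting used strand, reads of the tested gene opposite LHP1 may be included in its level. The level of LHP1 RNA did not separate ebs shl lhp1 from WT in these libraries, while those of EBS and SHL did.

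Of 20477 loci with enough counts to be tested, 14386 passed an adjusted p of 0.05 in edgeR's quasi-likelihood test, a share of 70.3%. The calls comprised 7078 loci higher (34.6%) and 7308 lower (35.7%) in ebs shl lhp1. With upper-quartile scaling they were 5789 higher and 8707 lower. By the larger threshold of at least 1 on the log2 scale, 7742 loci (37.8%) were called, of which 3435 loci were higher (16.8%) and 4307 lower (21%), or 2871 and 4988 with upper-quartile scaling. At 4 or more on the log2 scale there were 352 higher and 533 lower. The median log2 fold change of all tested loci was -0.02. With 70.3% of loci called, groups are described by the direction of their calls and their median log2 fold change. The lists of genes were chosen with earlier results of these data known, and their counts carry no test. A gene near 0 in WT could enter the test through any genotype that held counts of it, and could hardly come out lower. The counts and medians below describe the loci that were tested, and the filter set part of the balance in lists with such genes.

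The same fit gave 13231 loci (64.6%) changed in emf1 against WT and 9022 (44.1%) in ebs shl lhp1 against emf1. In emf1 against WT, 30.7% of all tested loci were higher and 33.9% lower. Between ebs shl lhp1 and emf1, whose RNA came from the same kit, 4829 loci were higher (23.6%) and 4193 lower (20.5%) in ebs shl lhp1. At 1 or more on the log2 scale these were 2088 (10.2%) and 990 (4.83%). Which direction held more calls turned with the settings, with 4245 higher and 4724 lower under a filter of 1 CPM in 3 libraries. It also turned without ebs shl lhp1 replicate 1 (3987 higher and 4301 lower) and without replicate 2 (3797 and 4227). Of the loci called in emf1 against WT, 47.5% were higher, and 36.3% were with upper-quartile scaling. The comparisons of ebs shl lhp1 and of emf1 with WT share the WT libraries, so their values are only set side by side.

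**Figure D1:**
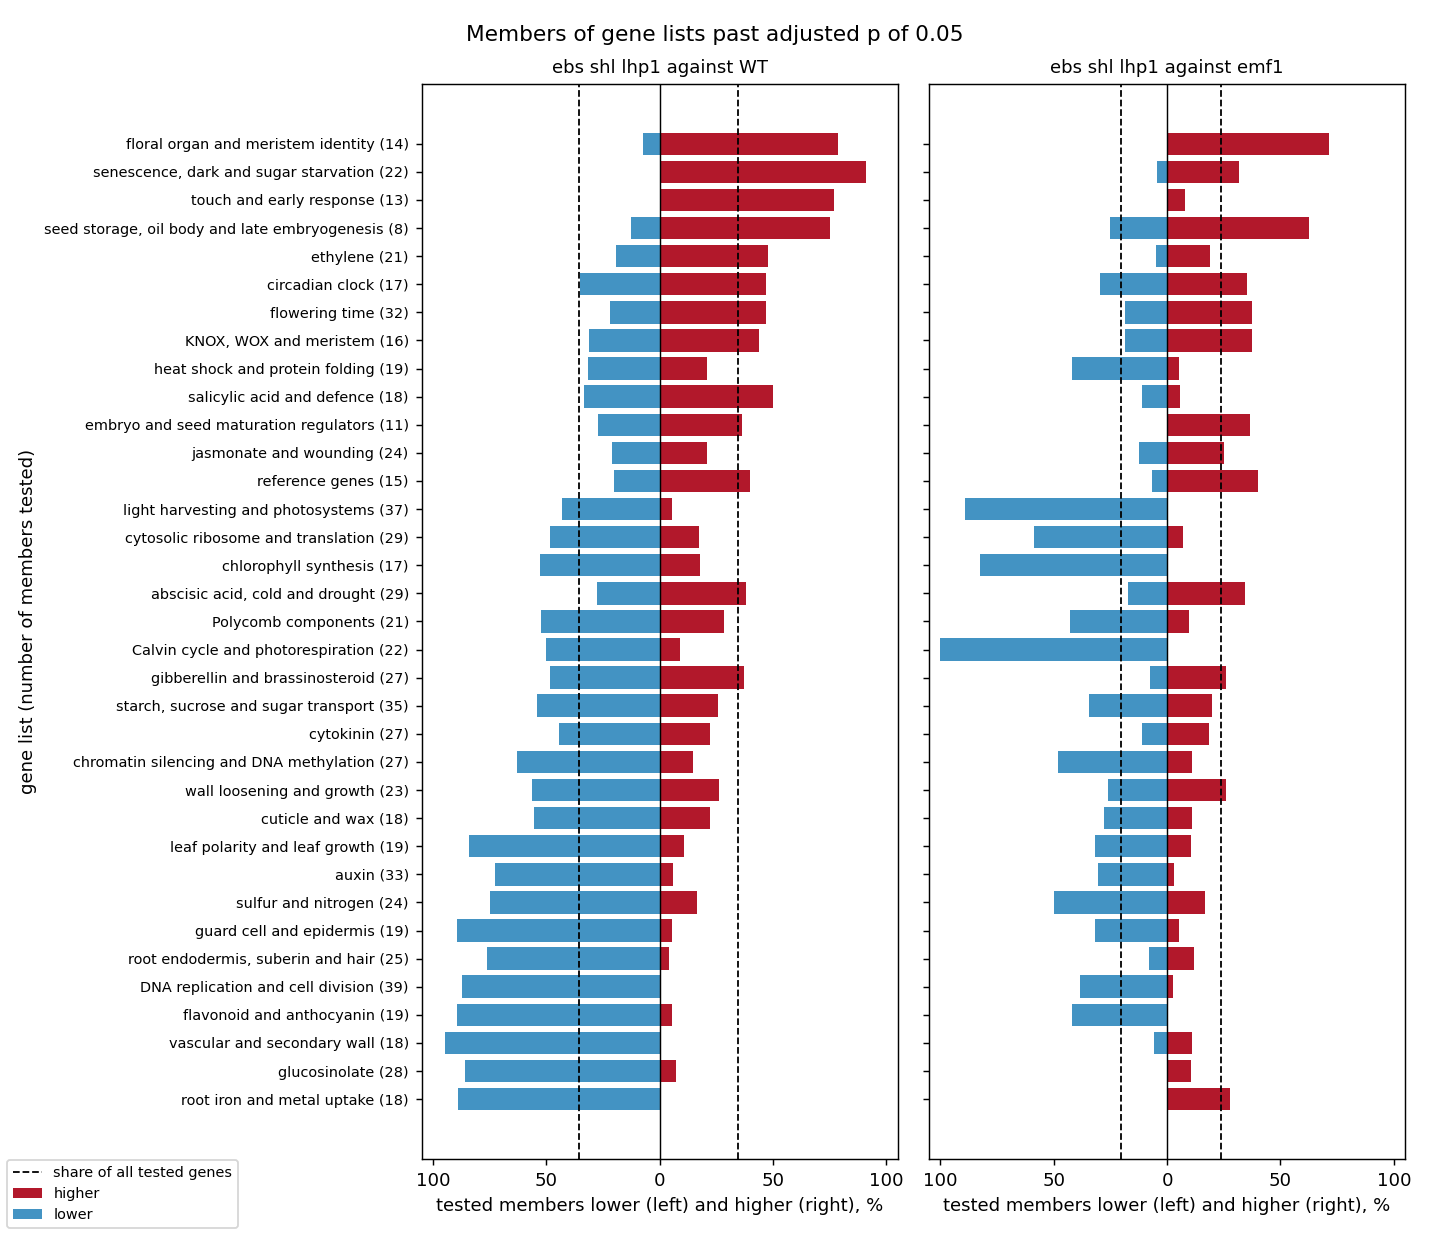
Share of the tested members of each gene list that were higher (right, red) or lower (left, blue) at an adjusted p of 0.05, for ebs shl lhp1 against WT (left panel) and against emf1 (right panel), with lists ordered by their median log2 fold change against WT. Dashed lines are the shares among all tested loci (34.6% higher and 35.7% lower against WT, 23.6% and 20.5% against emf1). Lists at the top are floral identity and senescence genes, and those at the bottom are root iron and glucosinolate genes.

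Many of the genes with the highest fold changes in ebs shl lhp1 were low in WT. BCB, a blue copper-binding protein, had 964, 1343 and 1186 CPM in ebs shl lhp1, against 2.42, 4.21 and 2.2 CPM in WT. Its log2 fold change was 8.62 ± 0.54 (SE, adjusted p = 2.8e-08), and emf1 had 572 ± 213 CPM (SD, n = 3). BCB is the direct neighbour of the floral gene PI by locus number, and both were higher. XTH24, a xyloglucan endotransglucosylase that remodels the cell wall, had 3347, 4988 and 3137 CPM in ebs shl lhp1, against 46.7, 58.7 and 36.7 CPM in WT, and so was well expressed in both. It was also above emf1, by 2.34 ± 0.26 on the log2 scale (SE, adjusted p = 1.2e-05). VIM5, of the family that maintains DNA methylation, had 25.2, 31.5 and 24 CPM in ebs shl lhp1 and 2 counts over the 3 WT libraries, a ratio of 648 (95% counting interval 179 to 5360). In ebs shl VIM5 had 11 ± 1.2 CPM and in emf1 0.717 ± 0.466 CPM (SD, n = 3 each).

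Other genes at this end included enzymes that break down amino acids and lipids. BCAT2, a branched-chain aminotransferase, had 393, 487 and 351 CPM in ebs shl lhp1, against 2.18, 2.93 and 1.82 CPM in WT. ICL, the isocitrate lyase of the glyoxylate cycle, had 99.3, 202 and 121 CPM in ebs shl lhp1, against 1.69, 2.08 and 0.566 CPM in WT. THA1, a threonine aldolase, had 216, 367 and 237 CPM in ebs shl lhp1, against 2.78, 5.37 and 3.46 CPM in WT. Their log2 fold changes were 7.47, 6.59 and 6.14. The transporters PTR3 (peptides) and PMT6 (polyols and monosaccharides) were higher by 6.03 ± 0.37 and 5.89 ± 0.34 on the log2 scale (SE). RTFL21, of a family of small growth-regulating peptides, had 16.3, 16.5 and 6.54 CPM in ebs shl lhp1 and 1 count over WT, a ratio of 601 (95% counting interval 107 to 23770). MCT1, an RNA-binding protein related to MEI2, had 7.07, 5.31 and 5.81 CPM in ebs shl lhp1 and 2 counts over WT, a ratio of 148 (95% counting interval 40.3 to 1225).

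Of the tested loci, 55 had no count in any WT library. A floor of 3 counts over the 3 libraries turns these into lower bounds. MYB101, a MYB factor known from pollen tubes, had 4.19, 5.5 and 3.37 CPM in ebs shl lhp1 and was at least 68.8-fold higher than in WT. CSLG2, a cellulose synthase-like protein, was at least 43.8-fold higher, the late embryogenesis gene EM1 at least 37.5-fold and the aldehyde oxidase AO4 at least 28.2-fold. AGL71, a MADS factor related to SOC1, was at least 26.4-fold higher and the protein kinase CPK14 at least 25-fold.

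Conversely, 92 tested loci had no count in ebs shl lhp1. AGP30, a root arabinogalactan protein, had no count in ebs shl lhp1 or in emf1, against 7.44, 5.86 and 5.34 CPM in WT, and was at least 75.6-fold lower than in WT. PCC1, named for its control by pathogens and the clock, was at least 50.7-fold lower, but its WT libraries were spread over 1.51, 8.79 and 2.2 CPM. The expansin EXPA17 was at least 42.5-fold lower, the iron regulator BHLH38 at least 36.3-fold, CSLG1 at least 28.6-fold and the anthocyanin malonyltransferase 5MAT at least 27.9-fold. CSLG1 and CSLG2 lie next to each other by locus number and moved in opposite directions.

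Among abundant WT genes, the genes with the lowest fold changes included wall, nitrogen transport and glucosinolate genes. GH9C2, an endoglucanase, had 1.77, 1.52 and 5.41 CPM in ebs shl lhp1, against 201, 137 and 183 CPM in WT. The amino acid permease AAP2 had 2.7, 1.23 and 4.16 CPM in ebs shl lhp1, against 96.4, 112 and 126 CPM in WT. CSLA09 (ATCSLA09 in the annotation), which makes glucomannan, had 3.63, 7.21 and 9.31 CPM in ebs shl lhp1, against 177, 156 and 163 CPM in WT. It was lower than in emf1 as well, at -2.59 ± 0.26 on the log2 scale (SE, adjusted p = 5.8e-06). GSTU20, a glutathione transferase, had 16.4, 3.51 and 14.5 CPM in ebs shl lhp1, against 266, 312 and 317 CPM in WT. MLP28 and DJ1F, whose roles are less settled, were at -4.69 and -5.08. GH9B8, another endoglucanase, had 0, 0 and 0.33 CPM in ebs shl lhp1, against 30.2, 29.7 and 30.4 CPM in WT. EXT10, a wall extensin, had 3 counts over ebs shl lhp1 and 11.4, 10 and 6.28 CPM in WT, a ratio of 113 (95% counting interval 38.3 to 548).

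Flower genes were active in seedlings of ebs shl lhp1. Of 20 floral organ and meristem identity loci, 14 were tested, with a median log2 fold change of 4.04. Of these, 11 were higher (78.6%) and 1 lower (7.14%), beside 34.6% and 35.7% of all loci. SEP2, AP3, AP1 and SHP2, at 3 counts or fewer over WT, entered through mutant libraries and could hardly come out lower. PI, which with AP3 specifies petals and stamens, had 375, 365 and 302 CPM in ebs shl lhp1, against 2.66, 3.79 and 2.83 CPM in WT. The log2 fold change was 6.81 ± 0.20 (SE, adjusted p = 1.4e-10). AP3 had 24.1, 4.65 and 8.58 CPM in ebs shl lhp1 and 3 counts over WT, a ratio of 196 (95% counting interval 66.5 to 953). PI was even across the 3 libraries, whereas AP3 was highest in replicate 1.

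SEP1 and SEP2 encode the cofactors that floral organ factors need. SEP2 had 20.4, 10.7 and 11.4 CPM in ebs shl lhp1 and 2 counts over WT, a ratio of 338 (95% counting interval 93 to 2797). SEP1 had 22.2, 14.3 and 13.5 CPM in ebs shl lhp1, against 0.363, 0.244 and 0.377 CPM in WT, with no overlap. Members beyond the naming rule, here and in the lists below, were chosen after their values were seen. SEP4 rose, as did AG, SEP3, SHP1 and FUL, with log2 fold changes of 5.30, 3.68, 1.55 and 1.47. AP1 and SHP2 rose as well, with 1 count each over WT and ratios of 34.9 (95% counting interval 5.73 to 1429) and 30.8 (5.01 to 1270). ANT, which promotes growth of organ primordia, fell by 2.11 on the log2 scale, and LFY and CAL did not pass the test (adjusted p = 0.14 and 0.12). UFO, CRC, SUP, STK, NZZ (SPL) and KNU had too few counts to be tested.

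Within the shared kit, 10 of the 14 floral genes were higher in ebs shl lhp1 than in emf1 and 0 were lower, with a median of 2.78. Among all loci 23.6% were higher and 20.5% lower than in emf1. PI had 158 ± 18.6 CPM in emf1, 80.9 ± 8.48 in ebs shl and 19.2 ± 3.95 in lhp1 (SD, n = 3 each). SEP1 had 1.05 ± 0.58 CPM in emf1, but 39.7 ± 7.83 in ebs shl and 34.1 ± 3.07 in lhp1 (SD, n = 3 each). AP3 had 18.5 ± 2.93 CPM in ebs shl and 16.5 ± 2.02 in lhp1 (SD, n = 3 each), so both genes were also high in these mutants, whose RNA came from the kit of WT. Against emf1, SEP1 was higher by 3.94 ± 0.30 and AP3 by 4.16 ± 0.57 on the log2 scale (SE, adjusted p = 7.9e-07 and 6.2e-05).

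**Figure D2:**
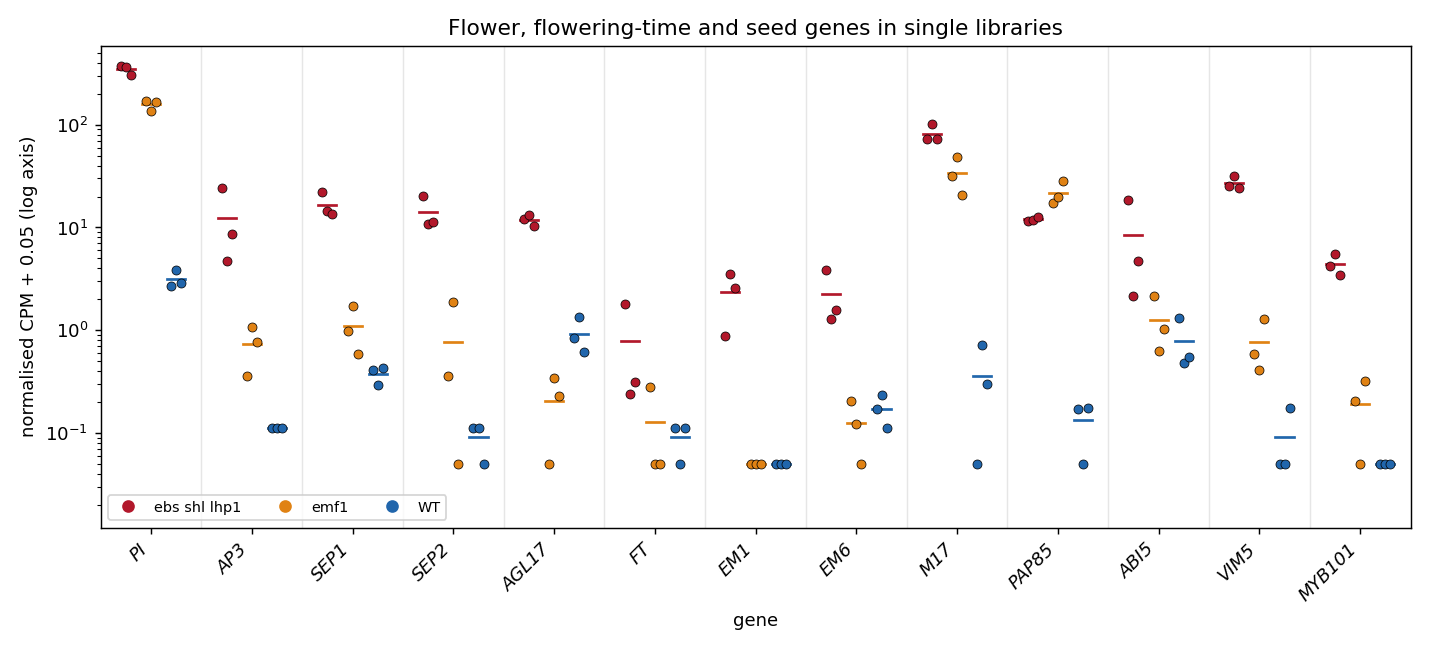
Normalised CPM plus 0.05, on a log axis, of flower, flowering-time, seed and related genes in single libraries of ebs shl lhp1 (red, left), emf1 (orange, middle) and WT (blue, right). Bars are means of 3 libraries, and points at 0.05 have no count. PI lies at 302 to 375 CPM in ebs shl lhp1 and below 4 CPM in WT, while EM1 has counts in ebs shl lhp1 but in no emf1 or WT library.

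Flowering-time genes were mixed. Of 32 tested members 15 were higher (46.9%) and 7 lower (21.9%), beside 34.6% and 35.7% of all loci (median 0.35). FT, the mobile flowering signal, had 1.77, 0.19 and 0.264 CPM in ebs shl lhp1 and 2 counts over WT, a ratio of 16.8 (95% counting interval 4.18 to 146). Replicate 1 held most of the FT counts, and without that library the adjusted p was 0.099. FKF1, the blue-light F-box protein of the photoperiod pathway, had 1.68, 3.7 and 3.83 CPM in ebs shl lhp1, against 0.242, 0.0611 and 0.314 CPM in WT. AGL17, a MADS factor that promotes flowering, had 12.1, 13.2 and 10.2 CPM in ebs shl lhp1, against 0.786, 1.28 and 0.566 CPM in WT. AGL17 was above emf1 too, by 6.15 ± 0.46 on the log2 scale (SE, adjusted p = 7.7e-07).

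The members that rose included a repressor of flowering and several activators. FLC, the repressor of the vernalisation pathway, was higher by 3.05 ± 0.27 and SOC1, which FLC represses, by 1.43 ± 0.19 on the log2 scale (SE). AGL19, AGL42 and AGL24 rose by 2.07, 1.85 and 0.90. The age-pathway factors SPL15 and SPL9 were at -3.66 and -2.21, and the repressors SNZ, TOE1 and SMZ at -2.77, -2.36 and -1.20. SPL15 had 0.0931, 0 and 0.198 CPM in ebs shl lhp1, against 1.63, 1.34 and 1.45 CPM in WT.

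A few seed genes were higher. Of 23 seed storage, oil body and late embryogenesis loci, 8 were tested (median 2.91). Of these, 6 were higher (75%) and 1 lower (12.5%), beside 34.6% and 35.7% of all loci. EM1, PAP85 and EM6, at 6 counts or fewer over WT, entered through mutant libraries and could hardly come out lower. M17, a late embryogenesis gene, had 72.5, 101 and 72.8 CPM in ebs shl lhp1, against 0, 0.672 and 0.251 CPM in WT. PAP85, a vicilin-type storage protein, had 11.6, 11.7 and 12.7 CPM in ebs shl lhp1, against 0.121, 0 and 0.126 CPM in WT. EM1 had 0.838, 3.51 and 2.51 CPM in ebs shl lhp1, with no count in WT or in emf1, and EM6 had 3.82, 1.23 and 1.52 CPM in ebs shl lhp1, against 0.121, 0.183 and 0.0628 CPM in WT. EM6 had 0.155, 0.0728 and 0 CPM in emf1, below ebs shl lhp1 (adjusted p = 0.001), whereas PAP85 was lower than in emf1, at -0.85 ± 0.22 (SE, adjusted p = 0.0066). RAB18 and LEA14 were also higher than in WT, at 1.59 and 1.32, and OLEO4 was lower, at -1.60. The wider families moved both ways against WT. Late embryogenesis proteins were higher in 18 and lower in 14 of 38 tested cases, and storage proteins, oleosins and cupins in 13 and 11 of 29. Their shares were 47.4% and 44.8% higher, beside 34.6% of all loci, and 36.8% and 37.9% lower, beside 35.7%.

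The defining seed markers were too low to be tested. These were the albumins SESA1 to SESA5, the cruciferins CRA1 and CRC1, the oleosins OLEO1 to OLEO3, and the master regulators LEC1, LEC2, ABI3 and FUS3. Among 11 tested embryo regulators 4 were higher (ABI5, WOX9, WOX2 and DOG1) and 3 lower (PLT2, BBM and PLT1). These shares, 36.4% and 27.3%, stood beside 34.6% and 35.7% of all loci. ABI5, the abscisic acid factor that activates EM1 and EM6, had 18.4, 2.09 and 4.62 CPM in ebs shl lhp1, against 1.27, 0.428 and 0.503 CPM in WT, and replicate 1 was highest. The PLT genes and BBM act in the root stem cell niche as well as in embryos. PLT1 had 0.279, 0.0949 and 0.462 CPM in ebs shl lhp1, against 4.05, 2.57 and 2.26 CPM in WT. BBM had 0.186, 0.38 and 0.132 CPM in ebs shl lhp1, against 3.2, 2.26 and 2.95 CPM in WT.

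Anther and pollen markers were nearly all too low to be tested (2 of 15). MYB80, a tapetum regulator, had 0.744, 0.759 and 0.858 CPM in ebs shl lhp1 and 1 count over WT. LAP6, an enzyme of the pollen wall, had 6.98, 8.54 and 7.59 CPM in ebs shl lhp1, against 5.38, 4.46 and 4.46 CPM in WT. Both passed the test, and the defining tapetum markers AMS, DYT1, MS1 and ATA7 were not tested for lack of counts.

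Genes of leaf senescence, darkness and sugar starvation rose nearly throughout. Of 22 tested members, 20 were higher (90.9%, beside 34.6% of all loci) and 0 lower (median 3.25). SAG13 and NAP did not pass the test, and SAG12 was too low to test. The summed level of the list was 10130, 12670 and 9365 CPM in ebs shl lhp1, against 402, 1170 and 531 CPM in WT. WT replicate 2 was the highest WT library, but remained far below the lowest ebs shl lhp1 library. SEN1, a classic dark-induced gene, had 1359, 1277 and 967 CPM in ebs shl lhp1, against 12.8, 73.9 and 27.3 CPM in WT. DIN2, a beta-glucosidase induced by darkness, had 99.2, 359 and 119 CPM in ebs shl lhp1, against 11.1, 4.09 and 8.23 CPM in WT. DIN11, a dioxygenase of the same set, had 25.8, 17.2 and 13.2 CPM in ebs shl lhp1, against 0.121, 0.0611 and 0.0628 CPM in WT.

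The branched-chain amino acid breakdown enzymes MCCA, IVD and BCE2 rose by 4.42, 4.26 and 3.40 on the log2 scale, and the senescence factors WRKY53 and ORE1 by 3.63 and 2.95. The emf1 libraries had summed levels of 5286, 6177 and 10360 CPM. Against emf1, 7 of 22 members were higher in ebs shl lhp1 and 1 lower (median 0.54), beside 23.6% and 20.5% of all loci. Among them were IVD at 0.89 ± 0.22 (SE) and DIN9 at -0.76 ± 0.20 (SE). Most of this group was therefore high in both genotypes extracted with the miRNeasy kit, and the part of the kit in its rise over WT was not tested.

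Sugar transport and starch genes moved in both directions. STP1, a hexose importer repressed by sugar, had 1884, 2037 and 1540 CPM in ebs shl lhp1, against 54.9, 189 and 76.7 CPM in WT. SWEET13, a sucrose exporter, had 0.186, 0.285 and 0.066 CPM in ebs shl lhp1, against 9.25, 7.69 and 14.9 CPM in WT. QQS, an orphan gene that limits starch, had 0.558, 0.19 and 0.198 CPM in ebs shl lhp1, against 7.98, 9.83 and 7.98 CPM in WT, and the lhp1 and ebs shl mutants had 0.484 ± 0.152 and 0.202 ± 0.222 CPM (SD, n = 3 each). APL3, a subunit of the starch-synthesising ADP-glucose pyrophosphorylase, was at -3.71 ± 0.41 on the log2 scale (SE). Over the list, 9 of 35 members were higher (25.7%) and 19 lower (54.3%), beside 34.6% and 35.7% of all loci.

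Photosynthesis genes differed little from WT as a list, and more uniformly from emf1. Of 37 light-harvesting and photosystem genes 2 were higher and 16 lower than in WT (median -0.17). The share lower was 43.2%, beside 35.7% of all loci. Their summed level overlapped between the groups, at 96670, 80060 and 98300 CPM in ebs shl lhp1, against 94190, 111200 and 105700 CPM in WT. None was changed by 1 or more on the log2 scale. LHCB1.2 had 3027, 2583 and 3783 CPM in ebs shl lhp1, against 5286, 6339 and 5903 CPM in WT. It belongs to a group of near-identical antenna genes, among which the counting could have split reads. PSBS, the sensor of non-photochemical quenching, had 983, 800 and 1173 CPM in ebs shl lhp1, against 1718, 1773 and 1768 CPM in WT. PSBR and PETC were the members that rose, at 0.50 and 0.25.

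Of 22 Calvin cycle and photorespiration genes, 11 were lower and 2 (AGT and RPE) higher than in WT (median -0.26). The shares were 50% lower and 9.09% higher, beside 35.7% and 34.6% of all loci. The carbonic anhydrase CA1 had 855, 658 and 1456 CPM in ebs shl lhp1, against 2643, 2988 and 2890 CPM in WT. GLDP1, a subunit of the photorespiratory glycine decarboxylase, had 2090, 1281 and 1758 CPM in ebs shl lhp1, against 3529, 3772 and 3567 CPM in WT. RBCS2B, a small subunit of Rubisco whose gene has close copies, had 860.3, 683 and 1010 CPM in ebs shl lhp1, against 2470, 2985 and 2509 CPM in WT.

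In emf1 these lists ran the other way against WT, with 20 photosystem genes higher and 2 lower, and 16 Calvin cycle genes higher and 1 lower. Among all loci 30.7% were higher and 33.9% lower in emf1 than in WT. Within the shared kit, 33 of 37 photosystem genes (median -0.48) and 22 of 22 Calvin cycle genes (median -0.86) were lower in ebs shl lhp1 than in emf1. None of either list was higher there, and among all loci 20.5% were lower and 23.6% higher than in emf1. Of 17 chlorophyll synthesis genes, 14 were lower than in emf1. Against WT, GUN4 was at -1.39 ± 0.11 and DVR at -1.13 ± 0.17 on the log2 scale (SE), and HEMA2, the isoform also used outside leaves, was higher by 1.83 ± 0.19.

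**Figure D3:**
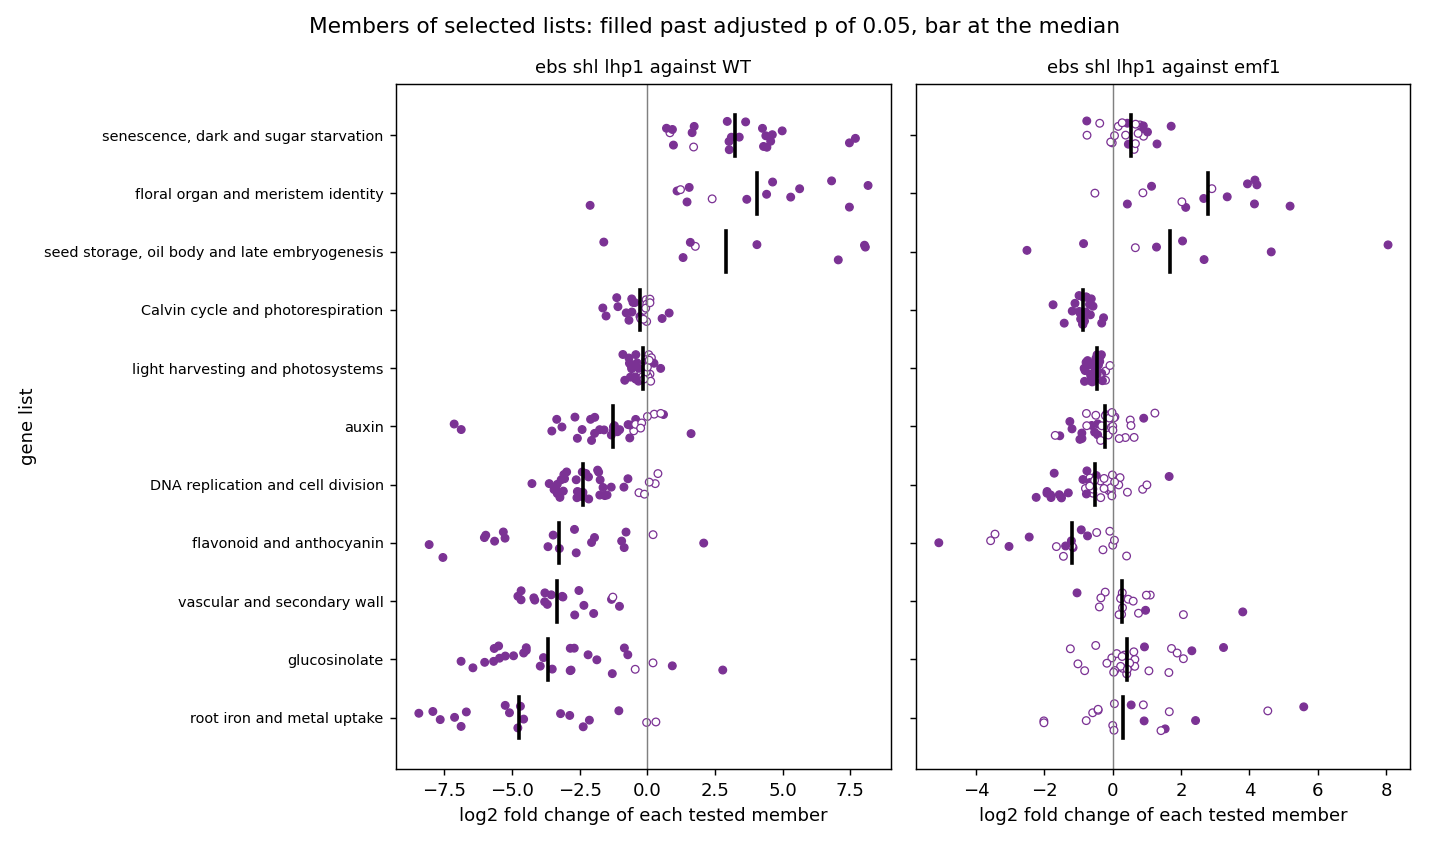
Log2 fold change of each tested member of 11 gene lists in ebs shl lhp1 against WT (left) and against emf1 (right). Points are jittered, filled points passed an adjusted p of 0.05, and bars are medians. Calvin cycle members sit at a median of -0.86 against emf1 and -0.26 against WT, while root iron and glucosinolate members are far below 0 against WT (medians -4.73 and -3.67) and near 0 against emf1 (0.29 and 0.42).

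Most genes of iron uptake in roots were lower. Of 18 tested members, 16 were lower (88.9%, beside 35.7% of all loci) and 0 higher. Their median was -4.73, or -4.62 with genes at no count set to their bound. The summed level of the list was 659.9, 557.9 and 567 CPM in ebs shl lhp1, against 915, 654.5 and 719 CPM in WT. These sums overlapped, so the median does not describe the total of the list. IRT1, the main iron importer of the root surface, had 0.372, 0 and 0.198 CPM in ebs shl lhp1, against 43.2, 20.3 and 19.9 CPM in WT. NAS4, which makes the metal chelator nicotianamine, had 0.186, 0.285 and 0.132 CPM in ebs shl lhp1, against 34.8, 13 and 23.1 CPM in WT. CYP82C4, which makes the iron-mobilising coumarin sideretin, had 1 count over ebs shl lhp1 and 8.28, 4.95 and 8.48 CPM in WT. FIT, the master regulator of this response, was at -2.14 ± 0.44 (SE) and its partner BHLH100 had no count in ebs shl lhp1 and was at least 25.4-fold lower. The proton pump AHA2 and the coumarin exporter PDR9 did not pass the test. In emf1 18 members were lower than in WT, beside 33.9% of all loci. Within the kit 5 of 18 were higher in ebs shl lhp1 than in emf1, a share near the 23.6% of all loci, and 0 were lower. Those higher were NAS1, PDR9, FRD3, AHA2 and NAS2, with NAS2 at no count in emf1.

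Markers of root hairs and endodermis moved with the iron genes. Of 25 tested, 19 were lower (76%, beside 35.7% of all loci) and 1 higher (PHT1;1, a phosphate importer, at 0.55). LRX1, a root hair wall protein, had 0, 0.0949 and 0.528 CPM in ebs shl lhp1, against 7.8, 7.94 and 4.27 CPM in WT. EXP7 (EXPA7), the root hair expansin, had 0, 0.0949 and 0.528 CPM in ebs shl lhp1, against 6.17, 3.85 and 2.7 CPM in WT. RSL4 and RHD6, which switch on root hair growth, were at -3.47 and -2.69, PIN2 at -3.55 and the endodermal CASP1 at -1.86. The root cap factor SMB, the endodermal MYB36 and CASP2, and the suberin enzymes GPAT5 and CYP86A1 did not pass the test. The list's summed level was 243, 192 and 196 CPM in ebs shl lhp1, against 419, 324 and 337 CPM in WT. In whole seedlings, fewer cells of a type and less RNA per cell cannot be told apart.

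Sulfur-starvation genes were nearly silent. SDI1, which lowers glucosinolate synthesis under sulfur deficiency, had 0.186, 0.19 and 0.264 CPM in ebs shl lhp1, against 25, 57.3 and 46.4 CPM in WT. GGCT2;1, which recycles glutathione, had 0.279, 0.38 and 0.132 CPM in ebs shl lhp1, against 17.2, 31.6 and 26.9 CPM in WT. LSU1 was at -5.65 ± 0.58 (SE), the sulfate importer SULTR1;1 was at least 10.9-fold lower, with no count in ebs shl lhp1, and the sulfate reductases APR1, APR2 and APR3 were at -4.04, -3.01 and -2.86. Over the sulfur and nitrogen list 18 of 24 members were lower (75%, beside 35.7% of all loci). The 4 that rose were the nitrate reductases NIA1 and NIA2 at 2.59 and 2.12, the glutamine synthetase GLN1;1 at 0.52 and the asparagine synthetase ASN2 at 0.41. SDI1 and GGCT2;1 were also lower than in emf1, at -3.06 ± 1.11 and -2.91 ± 0.74 on the log2 scale (SE, adjusted p = 0.038 and 0.0057).

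Glucosinolates are the sulfur-rich defence compounds of the Brassicaceae. Of 28 tested genes of their pathway, 24 were lower (85.7%, beside 35.7% of all loci) and 2 higher (median -3.67). MYB29, a regulator of the aliphatic branch, had 1.02, 0 and 0.33 CPM in ebs shl lhp1, against 40.6, 33.6 and 42.7 CPM in WT. CYP79F1, the first enzyme of that branch, had 9.49, 0.285 and 3.37 CPM in ebs shl lhp1, against 195, 195 and 196 CPM in WT. BAT5, which carries pathway intermediates into plastids, had 0.931, 0.285 and 0.33 CPM in ebs shl lhp1, against 65, 43.7 and 59.1 CPM in WT. The WT libraries were close together, whereas replicate 2 of ebs shl lhp1 was lowest for MYB29, CYP79F1 and BAT5.

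ESM1, which steers glucosinolate breakdown, had 20, 18.2 and 49.1 CPM in ebs shl lhp1, against 779.7, 482 and 692 CPM in WT. Among further members, AOP2 was at -6.88 ± 0.71, FMOGS-OX3 at -6.00 ± 0.49 and IPMI1 at -5.67 ± 0.63 (SE), and GSTF11, a glutathione transferase coexpressed with the branch, was at -6.63 ± 0.41. AOP2 is annotated as a transcribed pseudogene. The members that rose were MYB51, a regulator of the indole branch, at 2.79, and CYP83B1, an enzyme of that branch, at 0.92. In emf1 27 members were lower than in WT, beside 33.9% of all loci, and none was lower in ebs shl lhp1 than in emf1.

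Flavonoid and anthocyanin genes were lower as well, with 17 of 19 tested members lower (89.5%, beside 35.7% of all loci). Their median was -3.25, or -2.69 with genes at no count set to their bound. The summed level of the list fell less, at 1078, 1056 and 911 CPM in ebs shl lhp1, against 1676, 1188 and 1428 CPM in WT. It was 2346, 2003 and 1865 CPM in emf1. LDOX, which makes anthocyanidins, had 2 counts over ebs shl lhp1 and 7.07, 13.6 and 14.9 CPM in WT, a ratio of 215 (95% counting interval 59.3 to 1781). UF3GT, an anthocyanin glycosyltransferase, had 1 count over ebs shl lhp1 and 2.3, 2.32 and 2.39 CPM in WT. DFR, the reductase ahead of LDOX, was at -5.25 ± 0.58 and the flavonol regulator MYB12 at -2.62 ± 0.63 (SE). The flavonol regulator MYB111 had 1 count over ebs shl lhp1, a ratio of 52.2 (95% counting interval 9.07 to 2092), and the anthocyanin regulator PAP2 was at least 6.47-fold lower, with no count. MYBL2, a repressor of the pathway, was the member that rose, at 2.08 ± 0.37 (SE). Within the kit 8 of 19 members were lower in ebs shl lhp1 than in emf1 and 0 higher, beside 20.5% and 23.6% of all loci.

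Markers of xylem and secondary wall were lower in 17 of 18 tested cases (94.4%, beside 35.7% of all loci, median -3.34). MYB46 did not pass the test. XCP2, a protease of dying xylem vessels, had 0.465, 0.664 and 4.36 CPM in ebs shl lhp1, against 48.3, 59 and 47.6 CPM in WT. LAC4, a laccase of lignin synthesis, had 0.372, 0.285 and 1.59 CPM in ebs shl lhp1, against 15.4, 16.5 and 13.8 CPM in WT. IRX9, a xylan synthase, had 3 counts over ebs shl lhp1 and 2.36, 3.24 and 1.76 CPM in WT. Replicate 3 of ebs shl lhp1 was the highest of its group for XCP2 and LAC4, yet still far below WT. The cellulose synthases CESA4, CESA7 and CESA8 were at -2.34, -3.69 and -4.15, and the phloem sucrose transporter SUC2 at -1.32. The summed levels of the list were 67.8, 47.3 and 90.3 CPM in ebs shl lhp1, 50.9, 75.4 and 43.8 CPM in emf1 and 305, 398 and 342 CPM in WT.

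Epidermal genes were lower too. Of 19 guard cell and epidermis genes 17 were lower (89.5%, beside 35.7% of all loci) and TTG1 was higher, at 0.93. KAT1, a potassium channel of guard cells, had 2.79, 1.52 and 2.51 CPM in ebs shl lhp1, against 30.8, 26.6 and 29.2 CPM in WT. SPCH, which starts the stomatal lineage, had 1.02, 2.37 and 0.99 CPM in ebs shl lhp1, against 9.61, 8.67 and 9.61 CPM in WT. GL1, a regulator of leaf hairs, had 0.558, 0.19 and 0.198 CPM in ebs shl lhp1, against 2.42, 1.77 and 1.89 CPM in WT. SPCH was lower than in emf1 too, at -1.60 ± 0.27 (SE, adjusted p = 0.00031), while KAT1 was at -0.02 ± 0.20 against emf1 (adjusted p = 0.98). Of 18 cuticle and wax genes 10 were lower (55.6%) and 4 higher (22.2%), beside 35.7% and 34.6% of all loci. Those lower included DCR at -2.62 ± 0.41 and CYP86A4 at -4.31 ± 0.54 (SE). The 4 that rose were MYB96, MYB94, LTP2 and CER6, at 1.79, 1.15, 1.43 and 0.64.

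Leaf genes were mostly lower. Of 19 leaf polarity and leaf growth genes, 16 were lower (84.2%, beside 35.7% of all loci) and 2 (KAN1 and ARF3) higher (median -1.19). TCP4, which ends cell division in leaves, had 5.58, 5.98 and 8.25 CPM in ebs shl lhp1, against 66.9, 39.1 and 54.2 CPM in WT. TCP2 had 9.58, 6.93 and 14.5 CPM in ebs shl lhp1, against 47, 40 and 48.8 CPM in WT, and AS2, a repressor of meristem genes in leaves, was at -2.08 ± 0.35 (SE). YAB5, of the family that marks the lower leaf side, had 4.28, 2.28 and 4.09 CPM in ebs shl lhp1, against 12.6, 13.6 and 16.8 CPM in WT. YAB5 had 1.86 ± 0.349 CPM in lhp1 and 1.58 ± 0.297 CPM in ebs shl, both in the kit of WT, and 18.7 ± 2.16 CPM in emf1 (SD, n = 3 each). YAB5 was thus low in lhp1, ebs shl and ebs shl lhp1, and not in emf1.

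In the shoot meristem, members moved in both directions (7 higher and 5 lower of 16, or 3 lower without replicate 2 of ebs shl lhp1 or of WT). With all libraries the shares were 43.8% higher and 31.2% lower, beside 34.6% and 35.7% of all loci. PNY, a homeodomain partner of the KNOX proteins, had 51.3, 63.6 and 64.8 CPM in ebs shl lhp1, against 12, 14.7 and 14.6 CPM in WT. The ebs shl mutant had 58.9 ± 1.5 CPM (SD, n = 3), and against emf1 PNY was higher by 1.67 ± 0.13 on the log2 scale (SE, adjusted p = 1.2e-06). The KNOX genes KNAT2, KNAT6, STM and KNAT1 were higher by 1.73, 1.28, 0.72 and 0.50, and the boundary gene CUC2 by 1.95. ATH1, another partner of STM, had 5.77, 3.32 and 7.2 CPM in ebs shl lhp1, against 36.9, 32.2 and 39 CPM in WT. WOX1, which widens the leaf blade, was at -3.73 ± 0.48 (SE), and the stem cell genes WUS and CLV3 were too low to be tested.

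Cell division genes were lower almost throughout. Of 39 members 34 were lower (87.2%, beside 35.7% of all loci) and 0 higher (median -2.39). The cell cycle inhibitors KRP1, KRP2 and KRP6 and the cyclins CYCD2;1 and CYCD3;3 did not pass the test. MCM6, of the replication helicase, had 1.86, 2.37 and 5.15 CPM in ebs shl lhp1, against 37.5, 32.6 and 32.3 CPM in WT. CYCB1;3, a mitotic cyclin, had 0.558, 0.474 and 0.528 CPM in ebs shl lhp1, against 7.37, 5.92 and 6.22 CPM in WT. CYCA1;1 had 0.838, 0.285 and 1.92 CPM in ebs shl lhp1, against 11.2, 11.9 and 12.7 CPM in WT. ORC1A was at -4.26 ± 0.51 (SE). In emf1 33 members were lower than in WT, beside 33.9% of all loci. Within the kit 15 of 39 were lower in ebs shl lhp1 than in emf1, beside 20.5% of all loci. Among these was MCM6 at -1.92 ± 0.27 (SE, adjusted p = 7e-05), and CYCB1;1 was higher, at 1.65 ± 0.44.

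Hormone lists differed in how far they stood from the shares of all tested loci, 34.6% higher and 35.7% lower. Auxin genes were lower in 24 of 33 tested cases (72.7%, median -1.25). PIN5, an auxin carrier of the endoplasmic reticulum, had 1 count over ebs shl lhp1 and 5.98, 3.24 and 5.97 CPM in WT. The early-response repressors IAA19 and IAA29 were at -3.34 ± 0.39 and -3.52 ± 0.70 (SE), IAA6 was at least 12.2-fold lower with no count in ebs shl lhp1, and the auxin importer LAX3 was at -2.58. The members that rose, GH3.5 and GH3.17 (AT1G28130), encode enzymes that conjugate auxin to amino acids, and were at 1.62 and 0.60.

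Of 27 cytokinin genes 12 were lower (44.4%) and 6 higher (22.2%), beside 35.7% and 34.6% of all loci. LOG1, an enzyme that releases active cytokinin, had 6.42, 3.42 and 5.81 CPM in ebs shl lhp1, against 34.9, 45.6 and 35.9 CPM in WT, and was lower than in emf1 by 2.32 on the log2 scale (adjusted p = 5.9e-06). ARR3, a response regulator, was at least 18.9-fold lower with no count in ebs shl lhp1, and LOG4 was at -2.60 ± 0.52 (SE). CKX3, which degrades cytokinin, had 3 counts over ebs shl lhp1 and 24 over WT, a ratio of 5.97 (95% counting interval 1.81 to 31), and lost its call when any of 4 libraries was left out, with adjusted p of 0.06 to 0.13.

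Among 27 gibberellin and brassinosteroid genes 10 were higher (37%) and 13 lower (48.1%), beside 34.6% and 35.7% of all loci. The gibberellin synthesis gene GA3OX2 had no count in ebs shl lhp1, against 1.57, 1.16 and 1.95 CPM in WT, and was at least 18.9-fold lower. GA2OX1 and GA2OX8, which inactivate gibberellin, had 1 and 2 counts over ebs shl lhp1, against 2.72, 1.4 and 2.14 CPM and 1.15, 1.16 and 0.44 CPM in WT. The gibberellin receptors GID1A, GID1B and GID1C were higher by 1.91, 1.14 and 1.04 on the log2 scale. Of the last enzymes of brassinosteroid synthesis BR6OX2 was higher, at 2.70, and BR6OX1 had 2 counts over ebs shl lhp1, a ratio of 27.2 in the lower direction (95% counting interval 7.27 to 229).

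Ethylene genes were higher in 10 of 21 cases and lower in 4 (ACS4, ACO1, ACO4 and EIN2). The shares were 47.6% higher and 19% lower, beside 34.6% and 35.7% of all loci. ACS11, which makes the ethylene precursor, had 17.5, 20.8 and 30.8 CPM in ebs shl lhp1, against 0.423, 1.77 and 0.251 CPM in WT. ACS7, of the same family, had 14.3, 11.9 and 25.2 CPM in ebs shl lhp1, against 1.33, 0.977 and 0.817 CPM in WT, and 63.4 ± 14.6 CPM in emf1 (SD, n = 3). ACS7 was lower in ebs shl lhp1 than in emf1, at -1.88 ± 0.30 (SE, adjusted p = 0.00023). The receptors ETR2, ERS1 and ETR1 were higher by 2.17, 0.89 and 0.46 and the factor EIN3 by 1.38.

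Of 29 abscisic acid, cold and drought genes 11 were higher (37.9%) and 8 lower (27.6%), beside 34.6% and 35.7% of all loci. The abscisic acid receptors PYL6 and PYL5 rose. PYL6 had 46.7, 60.6 and 29.7 CPM in ebs shl lhp1, against 2.48, 1.4 and 0.88 CPM in WT. PYL5 had 209.6, 256 and 129.6 CPM in ebs shl lhp1, against 8.58, 18.7 and 9.55 CPM in WT. DREB2A, a drought and heat factor, had 99.8, 86.4 and 98 CPM in ebs shl lhp1, against 2.78, 8.12 and 3.39 CPM in WT. It was above emf1 by 2.55 ± 0.32 on the log2 scale (SE, adjusted p = 2.9e-05). The cold-response targets RD29A, COR15B and KIN1 were lower, at -3.42, -2.49 and -2.16.

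Early-response genes were higher, and a single library set much of their size. Of 13 tested touch and early-response genes 10 were higher (76.9%, beside 34.6% of all loci) and 0 lower (median 2.96). Their summed level was 781, 1301 and 2468 CPM in ebs shl lhp1, against 189.6, 411 and 221 CPM in WT, so replicate 3 was the highest library. ZAT10, a zinc finger factor induced within minutes of stress, had 6.51, 12.1 and 160.2 CPM in ebs shl lhp1, against 4.05, 2.87 and 2.45 CPM in WT. Without replicate 3 of ebs shl lhp1, 5 of the list were higher with a median of 1.43, and the log2 fold change of ZAT10 was 1.57 (adjusted p = 0.11).

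CML37, a calmodulin-like protein, had 0.465, 0 and 7.79 CPM in ebs shl lhp1, against 0.242, 0.244 and 0.251 CPM in WT, and was at -0.06 without that library. CBF2, a cold-response factor, had 0.186, 0.38 and 9.71 CPM in ebs shl lhp1, against 0.121, 0.183 and 0.126 CPM in WT, and was at 0.94 (adjusted p = 0.29) without it. By contrast ERF104, an ethylene-responsive factor, had 92.2, 138 and 145 CPM in ebs shl lhp1, against 4.84, 15.1 and 5.84 CPM in WT. CML38 had 7.63, 10.7 and 36.3 CPM in ebs shl lhp1, against 0.604, 1.47 and 1.13 CPM in WT, without overlap.

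**Figure D4:**
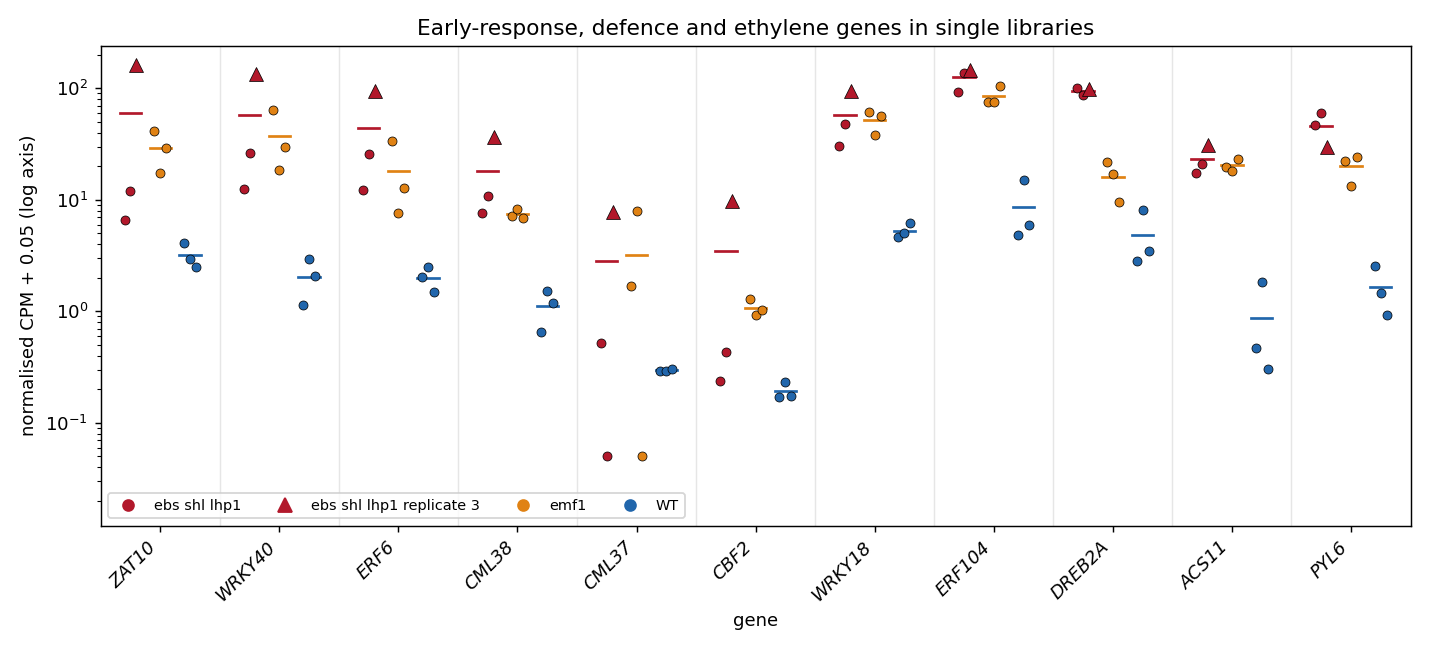
Normalised CPM plus 0.05, on a log axis, of early-response, defence and hormone genes in single libraries of ebs shl lhp1 (red, left), emf1 (orange, middle) and WT (blue, right). Bars are means of 3 libraries and the triangle is replicate 3 of ebs shl lhp1. ZAT10 stands at 160 CPM in replicate 3 and at 6.51 and 12.1 CPM in the other libraries of ebs shl lhp1, while DREB2A is even across the 3.

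Defence genes split. Of 18 salicylic acid and defence genes 9 were higher (50%) and 6 lower (33.3%), beside 34.6% and 35.7% of all loci. WRKY40 and WRKY18 are factors of basal defence. WRKY40 had 12.5, 26.3 and 134 CPM in ebs shl lhp1, against 1.09, 2.87 and 2.01 CPM in WT, and WRKY18 had 30.1, 47.6 and 94.8 CPM in ebs shl lhp1, against 4.59, 5.01 and 6.09 CPM in WT, again highest in replicate 3. FMO1, an enzyme of systemic resistance, had 3 counts over ebs shl lhp1 and 2.06, 2.81 and 2.89 CPM in WT. CYP71A13, of camalexin synthesis, was at -3.77 ± 0.92, the salicylic acid exporter EDS5 at -3.15 ± 0.37 and PR5 at -3.09 ± 0.40 (SE).

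Jasmonate genes were balanced, with 5 higher and 5 lower of 24, or 3 higher without replicate 1 of WT. Each share, 20.8%, was below those of all loci, 34.6% higher and 35.7% lower. JAZ7, a repressor of the pathway, had 4.47, 3.7 and 3.17 CPM in ebs shl lhp1, against 0.242, 0.611 and 0.126 CPM in WT. CORI3, a gene named for its induction by the jasmonate mimic coronatine, had 0.372, 0.664 and 2.44 CPM in ebs shl lhp1, against 8.34, 9.95 and 12 CPM in WT. VSP2, a storage protein induced by jasmonate, had 34.2, 8.64 and 7.73 CPM in ebs shl lhp1, against 2.06, 7.21 and 8.8 CPM in WT, and the groups overlapped. Without replicate 1 of ebs shl lhp1 VSP2 was at 0.46 (adjusted p = 0.31). TAT3, a tyrosine aminotransferase, had 1 count over ebs shl lhp1 and 2.96, 0.122 and 1.89 CPM in WT, where replicate 2 was near 0.

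Of 19 heat shock genes 4 were higher (21.1%) and 6 lower (31.6%), beside 34.6% and 35.7% of all loci. The small chaperone HSP17.6A had 3.82, 11.6 and 3.43 CPM in ebs shl lhp1, against 0.121, 0.122 and 0.251 CPM in WT, and the chaperone HSP81-3 had 377, 327 and 238 CPM in ebs shl lhp1, against 1212, 1029 and 954 CPM in WT. HSFA7A, a heat shock factor, had 97.4, 89 and 54.5 CPM in ebs shl lhp1, against 6.95, 33.2 and 8.11 CPM in WT, where replicate 2 was the highest. Without WT replicate 2 the list had 7 members higher.

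Clock genes moved in both directions (8 higher and 6 lower of 17). The shares, 47.1% higher and 35.3% lower, stood beside 34.6% and 35.7% of all loci. PRR5 and PRR3 are repressors active from midday into the evening, and CCA1 and LHY are active at dawn. PRR5 had 8.56, 14.6 and 23.9 CPM in ebs shl lhp1, against 2.24, 1.22 and 1.82 CPM in WT, and PRR3 had 6.51, 7.21 and 3.5 CPM in ebs shl lhp1, against 0.725, 0.55 and 0.503 CPM in WT. CCA1 had 45.5, 43.2 and 34.3 CPM in ebs shl lhp1, against 155, 125 and 147 CPM in WT, and LHY had 27.5, 31.9 and 17.2 CPM in ebs shl lhp1, against 165, 116 and 143 CPM in WT. Within the kit the same 4 genes differed from emf1, by 2.38 ± 0.42, 1.61 ± 0.36, -1.81 ± 0.18 and -1.39 ± 0.30 on the log2 scale (SE). LUX, TOC1 and PRR7 were also higher than in WT, at 1.77, 1.12 and 1.63, and the morning coactivator LNK1 was lower, at -1.06. The labels do not give the hour of harvest, and its part in these values was not tested.

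Chromatin genes moved in both directions. Of 21 Polycomb components 6 were higher (28.6%) and 11 lower (52.4%), beside 34.6% and 35.7% of all loci (median -0.24). At 1 or more on the log2 scale 3 were higher and 3 lower. CLF, a methyltransferase of Polycomb repressive complex 2, had 11.4, 12.2 and 14.1 CPM in ebs shl lhp1, against 32.2, 27.9 and 29.5 CPM in WT. EMF1 had 87.1, 73.9 and 71.8 CPM in ebs shl lhp1, against 27.5, 28.7 and 27.7 CPM in WT, and ebs shl had 118 ± 2.48 CPM (SD, n = 3). MEA, the seed counterpart of CLF, had 0.651, 3.51 and 0.99 CPM in ebs shl lhp1, against 0.363, 0.0611 and 0.251 CPM in WT, highest in replicate 2. ATX1, which sets the opposing mark on lysine 4, was at -1.63 ± 0.23 (SE). SWN, RING1A and VEL1 were slightly higher, at 0.24, 0.53 and 0.47, and FIE, EMF2 and MSI1 slightly lower, at -0.42, -0.31 and -0.32. An offset for GC content and length left 6 members lower and turned the list's median to 0.16.

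Of 27 genes of chromatin silencing and DNA methylation 17 were lower (63%, beside 35.7% of all loci, median -0.96). MET1, which maintains methylation at CG sites, had 10.2, 6.83 and 17.2 CPM in ebs shl lhp1, against 88.3, 79.8 and 78.6 CPM in WT. DDM1 and CMT3 were at -2.66 and -2.56. MET1, DDM1 and CMT3 are also most active in dividing cells, and the cell division list was lower as described above. A link between these values was not tested. The 4 that rose were VIM5, VIM4, AGO9 and DRM2. VIM4 had 10.5, 12.2 and 9.24 CPM in ebs shl lhp1, against 0.0604, 0.0611 and 0.44 CPM in WT, a level that is uncertain because the family has close copies. AGO9, an Argonaute of the germ line, had 6.33, 3.32 and 4.75 CPM in ebs shl lhp1, against 0.242, 0.55 and 0.44 CPM in WT, and ebs shl had 9.65 ± 0.777 CPM (SD, n = 3).

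Wall-remodelling genes moved both ways (6 higher and 13 lower of 23). The shares were 26.1% higher and 56.5% lower, beside 34.6% and 35.7% of all loci. XTH25 had 16.8, 25.7 and 20.7 CPM in ebs shl lhp1, against 0, 0.305 and 0 CPM in WT, and XTH23 had 119, 178 and 162 CPM in ebs shl lhp1, against 2.24, 5.01 and 2.83 CPM in WT. XTH17, of the same enzyme family but expressed in roots, had 0, 0 and 0.396 CPM in ebs shl lhp1, against 9.01, 12.6 and 5.91 CPM in WT. The expansins EXPA15, EXPA5 and EXPA8 were at -5.08, -4.67 and -3.62. Against emf1 XTH25 was higher by 3.46 ± 0.48 on the log2 scale (SE, adjusted p = 7.7e-05), and XTH23 was at 0.89 ± 0.37 (adjusted p = 0.069).

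Housekeeping genes moved in both directions, as did all tested loci, of which 34.6% were higher and 35.7% lower. Of 29 cytosolic ribosome and translation genes 5 were higher (17.2%) and 14 lower (48.3%, median -0.18). FIB2, a nucleolar fibrillarin, was at -2.54 ± 0.21 (SE), and ribosomal protein genes such as RPS6 at -0.79 ± 0.10. Of 15 reference genes 6 were higher (40%) and 3 (TUB6, TUB2 and ACT7) lower (20%). UBQ10 had 3032, 3766 and 2690 CPM in ebs shl lhp1, against 1293, 1219 and 1327 CPM in WT, and ACT8 had 472, 607 and 469.6 CPM in ebs shl lhp1, against 228, 242 and 197 CPM in WT. TIP41 was higher by 0.80 ± 0.11 on the log2 scale (SE). The directions of UBQ10, ACT8, TIP41 and TUB6 held under each scaling tried, whereas upper-quartile scaling put 8 reference genes lower.

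The share of counts by kind of locus moved with the groups too. Nuclear ribosomal RNA loci took 1.54%, 1.68% and 0.987% of counts in ebs shl lhp1, against 0.234%, 0.369% and 0.279% in WT, and 0.703% ± 0.118 in emf1 (SD, n = 3). Precursors of miRNAs took 0.00721% ± 0.00024 in ebs shl lhp1, against 0.0123% ± 0.00077 in WT (SD, n = 3 each), and 0.00706% in emf1. Neither pair of groups overlapped, and the two-sided exact permutation p was 0.1 for each, the smallest that 3 against 3 libraries allow. Genes with the greatest exon length, summed over all exons of a gene, were more often lower. In the top decile of annotated exon length the median log2 fold change was -0.39 with 55.8% of genes lower, against 0.17 and 27.1% in the shortest decile. The same top decile was at -0.24 in emf1 against WT and at -0.17 in ebs shl lhp1 against emf1. The part of these shifts in the gene lists was not tested beyond an offset for GC content and length, under which 14124 loci were called.

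**Figure D5:**
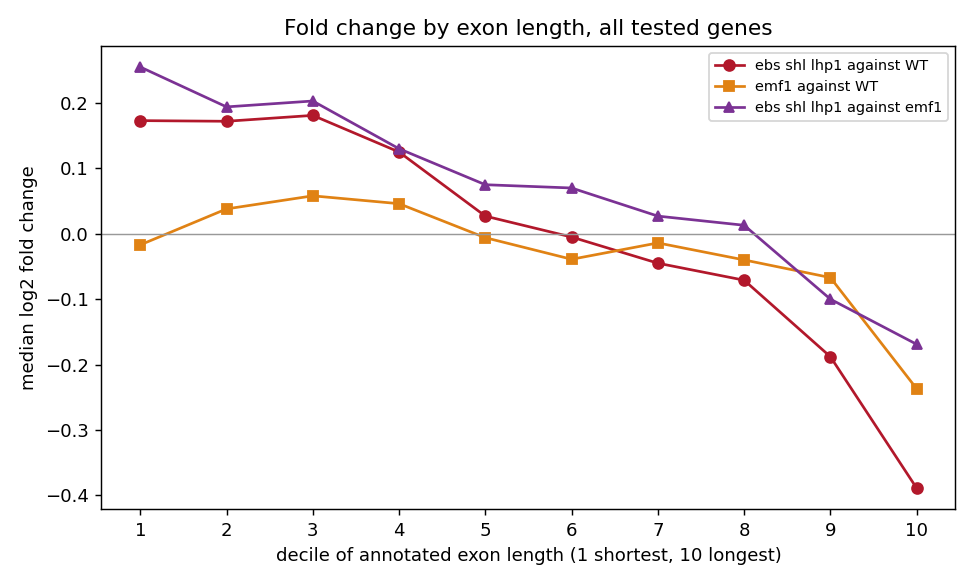
Median log2 fold change of all tested genes by decile of annotated exon length, for ebs shl lhp1 against WT (circles), emf1 against WT (squares) and ebs shl lhp1 against emf1 (triangles). Each decile holds 2040 to 2056 genes, and ebs shl lhp1 against WT runs from 0.17 in the shortest to -0.39 in the longest decile.

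Of the 173 genes that met the naming rule, 20 overlap a tested gene on the other strand. Among those described, these include LHP1, BCAT2, THA1, SEP1, FKF1, SPL15, GLDP1, GUN4, BHLH38, CSLG1, GSTF11, EXP7, DREB2A, WRKY40, CYP71A13, STP1, ORC1A and CLF. Their reads cannot be told apart from those of the partner gene without the strand setting, and their levels are uncertain to that extent.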

How the data were processed

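Messenger RNA of whole seedlings was sequenced from 5 genotypes with 3 libraries each, using a KAPA stranded mRNA-seq kit. The tools named in the submitters' processing notes are HTSeq, edgeR and TopHat2 2.1.1, with TAIR10 as the build, and the strand setting of the counting is not given in the sources used here. The authors deposited 1 table of raw counts per library over 33602 loci, of which 279 organelle loci held 0 counts.

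From the counts, all 15 libraries were fitted together in R 4.3.3 with edgeR 4.0.16 (TMM factors, filterByExpr, quasi-likelihood test, Benjamini-Hochberg adjustment over 20477 loci, threshold 0.05). SEs were derived from the quasi-likelihood F statistic. The same steps were run on simulated data with few changed loci, in balanced directions. That run cannot show how the scaling and test behave where 70.3% of loci are called. Names were matched for 20457 tested loci through the RefSeq annotation, without coordinates. One count equals 0.0604 to 0.0949 CPM in the libraries of ebs shl lhp1 and WT, and intervals and floors cover counting error only. Same-numbered libraries of ebs shl lhp1 and WT had deviations correlated at -0.044, 0.047 and -0.045. No shared effect of the replicate number showed, but these values cannot tell whether same-numbered libraries were grown together. Members and lists were chosen with earlier results of these data known. Named genes were the 12 highest and lowest by fold change at 5 CPM or more, the 8 at 100 CPM or more, the 6 with no count in a group, and up to 4 per list. Alternatives were other scalings, tests (DESeq2 1.42.0), filters, the 2 genotypes alone, a replicate block, a GC and length offset, and each library left out.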

Additional observations from a re-analysis of the deposited data

How the results depend on the processing

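The count of loci changed in ebs shl lhp1 against WT was 13063 with only the 2 genotypes fitted and 14496 with upper-quartile scaling, the extremes of the settings tried, and 13442 to 13943 with a library left out. Changes of at least 1 on the log2 scale numbered 7402 to 7992 with a library left out, and the counts against emf1 were 7875 to 8598. With the replicate block the counts were 14157, and 8593 against emf1, although the labels state no pairing of the samples. Upper-quartile scaling moved the median log2 fold change of all tested genes to -0.195, and LHP1 then stood at -0.088 (adjusted p = 0.41). CML37 ranged from -0.064 (adjusted p = 0.98, without ebs shl lhp1 replicate 3) to 4.077 (without replicate 2) with a library left out. Of 172 named genes past the test, 165 were called under every alternative that tested them, and FT, CKX3, CBF2, TAT3, VSP2, ZAT10 and CML37 were not, mostly when 1 library was left out. The cause was not tested. The medians of the embryo regulators and the jasmonate list changed sign with upper-quartile scaling, and those of the Polycomb and reference lists with the GC and length offset. At 11730989 to 16236389 counts per library, genes under 1 CPM rest on few reads.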

Other observations

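Protein families, read from their annotated product names, gave further groups, with 34.6% of all tested loci higher and 35.7% lower against WT, and 23.6% higher and 20.5% lower against emf1. Of 58 tested WRKY factors, which act in defence and senescence, 38 were higher and 8 lower in ebs shl lhp1 than in WT (median log2 fold change 1.38). Of 52 tested MADS box genes 26 were higher and 9 lower, and within the shared kit 27 were higher and 5 lower than in emf1 (median 0.95). F-box genes were higher in 106 of 194 tested cases and lower in 37, while 628 such loci are annotated and most were too low to be tested. At least 13 of the tested F-box loci had no count in WT, entered through other genotypes and could not come out lower. Cysteine-rich receptor-like kinases were higher in 15 and lower in 3 of 26, and leucine-rich repeat receptor-like kinases were lower in 78 and higher in 33 of 142.

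Families of growth were lower. Of 27 kinesins, the motor proteins of the spindle and division plate, 24 were lower and 2 higher (median -2.77). SAUR genes, which promote cell expansion under auxin, were lower in 37 and higher in 11 of 53, and expansins in 16 and 2 of 22. Histone genes were lower in 28 and higher in 9 of 47. Late embryogenesis genes were higher than in WT in 18 and lower in 14 of 38 cases, and higher than in emf1 in 22 and lower in 2 (median 1.70). Peroxidases were higher than in WT in 9 and lower in 25 of 51 cases, and higher than in emf1 in 19 and lower in 2. Ribosomal proteins were lower than in emf1 in 124 and higher in 25 of 317. Pentatricopeptide repeat proteins, which process organelle RNA, were lower in 65 of 258, a share near that of all loci, and higher in 8.

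Short sequence motifs were counted on both strands of promoters from the RefSeq TAIR10.1 annotation, and a match is only a description. The site II element TGGGCC was in 12.7% of promoters of loci higher by at least 1 on the log2 scale, in 11.8% of those lower, and in 18.4% of all tested. The evening element AAAATATCT was in 4.51% of the higher, 2.65% of the lower and 2.97% of all tested. The telobox AAACCCTA was in 3.44% of the higher, 4.93% of the lower and 5.59% of all tested. The next gene along the chromosome was also higher by at least 1 for 24.8% of higher loci, beside 16.8% of all tested loci, and lower for 25.3% of lower loci, beside 21%. No test was made of these shares.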
